A study of Laetiporus sulphureus with 6 samples.

Results

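The carbohydrate esterases of *Laetiporus sulphureus* ATCC 52600, a brown-rot basidiomycete, were compared between mycelium on sugarcane bagasse and the mycelium from which those cultures were started. The members were the genes whose CAZy domain in the genome annotation of the study begins with CE and a number. The annotation lists 13 such genes, and 8 of them were among the 10015 genes of the count table. These 8 were 3 CE4 genes (g3716, g5832 and g850), 3 CE16 genes (g9609, g6860 and g408), the CE1 gene g5869 and the CE9 gene g9045. The CE1 gene g11268, the CE16 genes g8935, g8936 and g463, and the CE8 gene g11253 were not in the table and were not analysed here. Ranks, sums and shares within the family below therefore refer to the 8 genes of the table only. The BIN group consisted of 3 cultures in which washed mycelium was shaken for 24 h at 30 °C with 1 g of in natura (not pretreated) bagasse in 100 mL of a mineral medium of salts at pH 7.0. The T0 group consisted of 3 cultures of the pre-inoculum, grown in 100 mL of liquid medium for 7 days from 15 agar discs. Cultures of both groups were kept at 30 °C and shaken at 180 rpm. All cultures were of this single strain. Transfer to a fresh medium of salts, with the loss of the pre-inoculum medium, the extra day and contact with bagasse came together in BIN. Their parts in any difference cannot be told apart.

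Carbohydrate esterases remove acyl groups from polysaccharides and amino sugars. Family CE4 holds metal-dependent deacetylases, among them chitin deacetylases, which turn the chitin of the fungal wall into chitosan, and acetyl xylan esterases, which take acetyl groups off the xylan of plant walls. CE1 also contains acetyl xylan and feruloyl esterases, CE16 enzymes release acetyl groups from sugars and oligosaccharides, CE8 enzymes demethylate pectin, and CE9 enzymes remove the acetyl group of N-acetylglucosamine-6-phosphate inside the cell. The xylan of grasses such as sugarcane is acetylated and carries ferulic acid.

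The libraries held 11579062, 11937115 and 13234097 counts in BIN and 9541028, 14224441 and 15331728 counts in T0. Correlations of log2 CPM (counts scaled to the size of the library) between libraries of 1 group were 0.993 to 0.995 in BIN and 0.979 to 0.992 in T0. Every gene of the table had at least 1 CPM in every library. Genes under that level in any library were absent and were not analysed here, so ranks and largest rises hold within the table only. Levels of 1 gene are given as CPM after TMM normalization, which scales the libraries to each other, and levels of different genes are compared as TPM, which is divided by gene length. Fold changes are BIN over T0, with their standard error (SE), from edgeR's quasi-likelihood test across all genes with Benjamini-Hochberg adjustment. Genes are described as called, higher or lower, where the adjusted p did not exceed 0.05 and the log2 fold change reached 1 or -1.

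Among the 8 members in the table, the CE4 gene g3716 was the most abundant transcript on bagasse and the least abundant in T0. It was also the gene with the largest rise among the 10015 of the table. Of the 8 members, 2 were called higher, g3716 and the CE4 gene g5832, where 11.3% of all genes were called higher. A single member, the CE9 gene g9045, was called lower, against 14.5% of all genes. The remaining 5 had log2 fold changes between -0.89 and 0.25. Without g3716, the median log2 fold change of the other 7 was -0.38, and that of all genes was -0.0038. In TMM-normalized CPM, the libraries of the groups did not overlap for 7 of the 8 members, which was also the case for 75.6% of all genes.

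**Figure D1:**
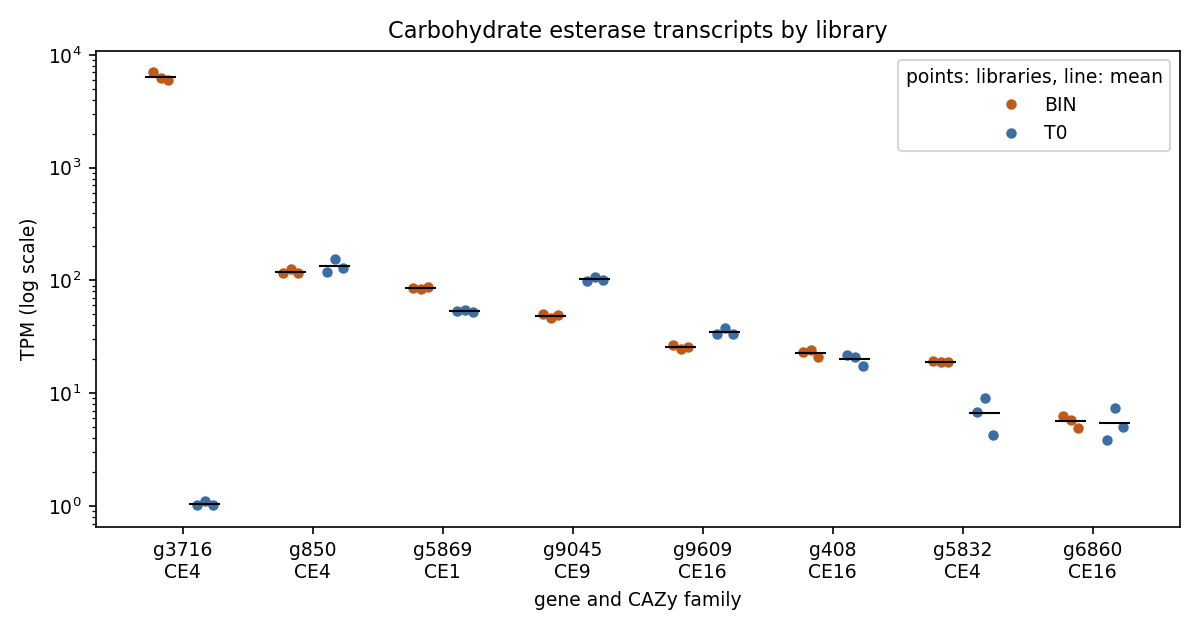
TPM of the 8 carbohydrate esterases (log axis), with 1 point per library, the mean as a line, BIN to the left of T0 in each pair and genes ordered by their BIN level. The BIN libraries of g3716 lie between 6011 and 6989 TPM and its T0 libraries between 1.02 and 1.10 TPM, whereas each other gene differs far less between the groups.

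g3716 is annotated as a chitin deacetylase. By the coding length recovered from the ratio of counts to TPM, it has 1467 nt, or 489 codons if the stop is included. It was read 119332, 109050 and 117558 times in the BIN libraries, against 18, 27 and 29 times in the T0 libraries. TMM-normalized levels were 9875, 8597 and 8513 CPM in BIN and 2.05, 1.90 and 2.01 CPM in T0. The groups were thus far apart, and each was even within itself. The log2 fold change was 12.14 (SE 0.22, edgeR adjusted p = 3.96e-09), a 4518-fold difference. The mycelium was sequenced in bulk, so more transcript per hypha and more hyphae that express the gene cannot be told apart.

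In each BIN library g3716 took about 1 read in 100. Its share of all counts was 1.03% (95% exact Clopper-Pearson interval 1.02 to 1.04), 0.914% (0.908 to 0.919) and 0.888% (0.883 to 0.893) in BIN. In T0 the shares were 0.000189% (0.000112 to 0.000298), 0.000190% (0.000125 to 0.000276) and 0.000189% (0.000127 to 0.000272). These intervals cover counting error alone. The precision of the fold change is set by T0, where the gene had 74 reads over the 3 libraries (exact Poisson interval 58.1 to 92.9). From the pooled counts, 345940 reads in BIN and 74 in T0, the ratio per total count was 4973, with an exact interval of 3961 to 6334. This interval also covers counting error alone and not the spread between cultures. The ratio is not scaled by TMM, unlike the fold change above. The T0 libraries differed by less than counting alone would give, with a coefficient of variation of 3.81% where 20.6% corresponds to counting error. With a T0 mean of 1.99 CPM, 200 of the 10015 genes had a T0 mean at or under that of g3716. This level is near the table's floor of 1 CPM, so genes quieter in T0 may be missing from the comparison.

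Ranked by TPM among all 10015 genes, g3716 stood at 6, 7 and 7 in the BIN libraries and at 9922, 9956 and 9928 in the T0 libraries. Among the 257 CAZyme genes of the table it ranked 1 in each BIN library, and at 252 in T0 replicate 1 and 254 in T0 replicate 2, with T0 replicate 3 close to them. It made up 20.2%, 18.7% and 17.6% of the summed TPM of all CAZyme genes in BIN. In T0 its share of that sum was 0.00533%, 0.00492% and 0.00558%.

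By the size of its rise, g3716 was followed at a distance. The gene g4028, which has no entry in the enzyme lists used here, had the next largest log2 fold change, 10.73 (SE 0.41, edgeR adjusted p = 6.49e-08). No other gene of the table reached a log2 fold change of 8, and g4641, at rank 3, was at 7.30 (SE 0.19, edgeR adjusted p = 1.33e-08). The same genes had the profiles nearest to that of g3716 when log2 CPM was centred on the T0 mean and compared over the 6 libraries. The Euclidean distance was 2.50 for g4028, 8.41 for g4641 and 8.46 for g3198. The 6 libraries form 2 groups, so this measure is led by the size of the difference between BIN and T0. g4028 was measured at 24680, 21694 and 27229 CPM in BIN and at 22.1, 9.38 and 12.7 CPM in T0. It was therefore the more abundant of the 2 genes in reads in every library.

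The rise of g3716 did not extend to the genes numbered next to it. Genes are numbered by the annotation, and their positions in the assembly were not used here. All 10 genes from g3711 to g3721 other than g3716 itself were in the table, and their log2 fold changes ran from -1.43 to 1.72. g3715, just before it, was at 0.51 (SE 0.08) and g3717, just after it, was lower at -1.43 (SE 0.13, edgeR adjusted p = 1.16e-05). The gene called higher in this stretch was g3719, of the GH13_8 family, at 1.72 (SE 0.11, edgeR adjusted p = 1.34e-06). Around the other 7 members, 25 of the 28 genes numbered within 2 of them were in the table, and none was called higher, while 5 were called lower, beside 11.3% higher and 14.5% lower among all genes.

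The family's summed TPM was 7317, 6574 and 6336 in BIN and 337, 394 and 344 in T0. g3716 accounted for 94.9% to 95.5% of it in BIN, against 0.279% to 0.302% in T0. The sum of the other 7 genes was 328, 330 and 325 TPM in BIN, against 335, 393 and 343 TPM in T0, so that every BIN library lay below every T0 library. The margin was small in TPM, a scale on which the median difference of all genes was 0.40 in log2(TPM + 1). It was wider in TMM-normalized CPM, where the same 7 genes summed to 526, 532 and 526 in BIN and 818, 858 and 843 in T0, with BIN at 62.9% of T0. CPM is not divided by length, and the longest gene, g850, alone had a mean of 337 CPM in BIN and 512 CPM in T0. With 3 libraries in each group, permuting the libraries cannot give a p below 0.1, and these sums were not tested.

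**Figure D2:**
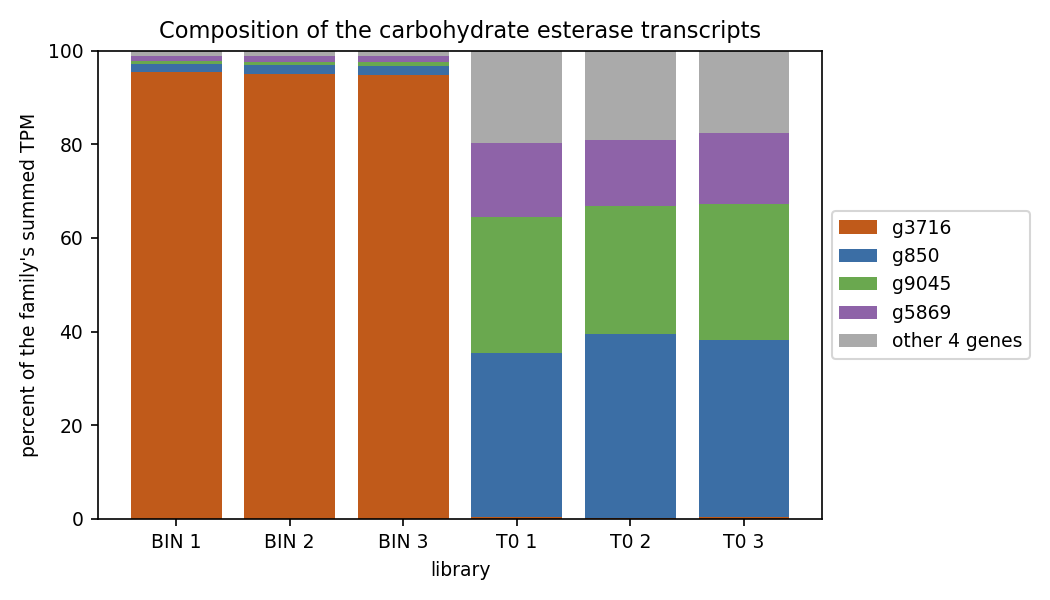
Percent of the family's summed TPM made up by g3716, g850, g9045, g5869 and the remaining genes pooled, by library, with the BIN libraries to the left of the T0 libraries. g3716 fills 94.9% to 95.5% of the BIN bars and 0.279% to 0.302% of the T0 bars, too thin to be seen there, where g850, g9045 and g5869 are the main parts.

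The other gene that the gene table of the annotation gives as a chitin deacetylase, g850, was not called. It is the longest of the family, with a coding length of 2961 nt. It was the leading esterase transcript of T0 and stood next after g3716 in BIN. Its levels were 329, 350 and 333 CPM in BIN and 480, 539 and 516 CPM in T0, lower in every BIN library. The log2 fold change of -0.60 (SE 0.09, edgeR adjusted p = 0.000319) did not reach the threshold of 1. Fold changes were higher in longer genes, with a Spearman correlation of 0.33 across the 10015 genes, which are not independent replicates. With a smooth trend on coding length removed from each library, g850 was called lower, at -1.08 (edgeR adjusted p = 6.07e-06). On log2(TPM + 1) values the difference was -0.16 (limma adjusted p = 0.212). The median of all genes on that scale was 0.40, and relative to it g850 was at -0.56. Its TPM overlapped between the groups, with up to 126 in BIN and down to 118 in T0. Per length, g3716 stood at 60.6, 49.6 and 51.5 times the TPM of g850 in the BIN libraries. In T0, g850 stood at 116, 140 and 127 times the TPM of g3716.

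The remaining CE4 gene, g5832, is the shortest member, with a coding length of 465 nt. The gene table of the annotation assigns it acetyl xylan esterase activity, whereas another table of the study names it a chitin deacetylase. It was read 104, 105 and 117 times in BIN and 38, 70 and 38 times in T0. In TMM-normalized CPM it was at 8.61, 8.28 and 8.47 in BIN, which was very even, and at 4.33, 4.93 and 2.63 in T0. It rose by 1.10 on the log2 scale (SE 0.21, edgeR adjusted p = 0.00117), or 2.15-fold. This call lay close to the threshold. Without T0 replicate 3, the lowest library, the log2 fold change was 0.85 and the gene was not called, and it was not called when the fold change itself was tested against the threshold with glmTreat (adjusted p = 0.564).

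The CE9 gene g9045 is the family's N-acetylglucosamine-6-phosphate deacetylase by annotation, an enzyme of amino sugar catabolism. Its levels were 73.1, 65.4 and 70.7 CPM in BIN and 201, 191 and 200 CPM in T0. The groups were far apart for the spread within them, and BIN was at 35.3% of T0. The log2 fold change was -1.50 (SE 0.08, edgeR adjusted p = 2.57e-07). It was called lower in each of the 18 alternative settings, between -1.59 and -1.05. The chitin deacetylase g3716 and the deacetylase of the sugar phosphate thus changed in opposite directions. The chitin deacetylase g850 was lower as well, at -0.60, though not called.

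The CE1 gene g5869, a carboxylesterase by annotation, was the member with the smallest change that passed the test on p alone. It was measured at 68.5, 64.4 and 70.1 CPM in BIN and 59.9, 53.4 and 57.6 CPM in T0. The BIN libraries were all above the T0 libraries, and the log2 fold change was 0.25 (SE 0.08, edgeR adjusted p = 0.017), far under the threshold. Without BIN replicate 1 or BIN replicate 3 the adjusted p was 0.0556 or 0.0572 in edgeR. The difference was 0.45 with the trend on coding length removed and 0.68 on log2(TPM + 1) values. On that TPM scale the median of all genes was 0.40, and relative to it g5869 was at 0.27. Counting every gene with an adjusted p of at most 0.05, 6 of the 8 members passed, where 71.1% of all genes did. This count was 5 without BIN replicate 1 or BIN replicate 3 and 7 without T0 replicate 1.

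None of the 3 CE16 acetyl esterases was called. g9609 was the most abundant of them and stood at rank 4 of the 8 esterases in T0. It was measured at 26.1, 23.4 and 25.2 CPM in BIN and 47.3, 45.5 and 45.3 CPM in T0. All its BIN libraries lay below its T0 libraries, and its log2 fold change of -0.89 (SE 0.08, edgeR adjusted p = 1.21e-05) fell short of the threshold, as it did in each of the 18 alternative settings, where it ran from -0.92 to -0.44. g408 was at 14.5, 14.8 and 13.2 CPM in BIN and 19.5, 16.0 and 15.2 CPM in T0, and g6860 at 5.96, 5.36 and 4.71 CPM in BIN and 5.24, 8.60 and 6.65 CPM in T0. The groups of g408 were separated by a narrow gap, and those of g6860, the least abundant transcript of the family on bagasse, overlapped. Neither passed the test on p, with log2 fold changes of -0.25 (SE 0.13, edgeR adjusted p = 0.112) and -0.38 (SE 0.20, edgeR adjusted p = 0.109). Without T0 replicate 1, g6860 was at -0.52 (edgeR adjusted p = 0.0284) and g408 at -0.15, and without T0 replicate 2 g6860 was at -0.19. Both signs turned on log2(TPM + 1) values, to 0.18 and 0.08, a scale on which the median of all genes was 0.40. Relative to that median the differences were -0.22 and -0.32. The sign of g408 also turned with the trend on coding length removed, to 0.06.

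**Figure D3:**
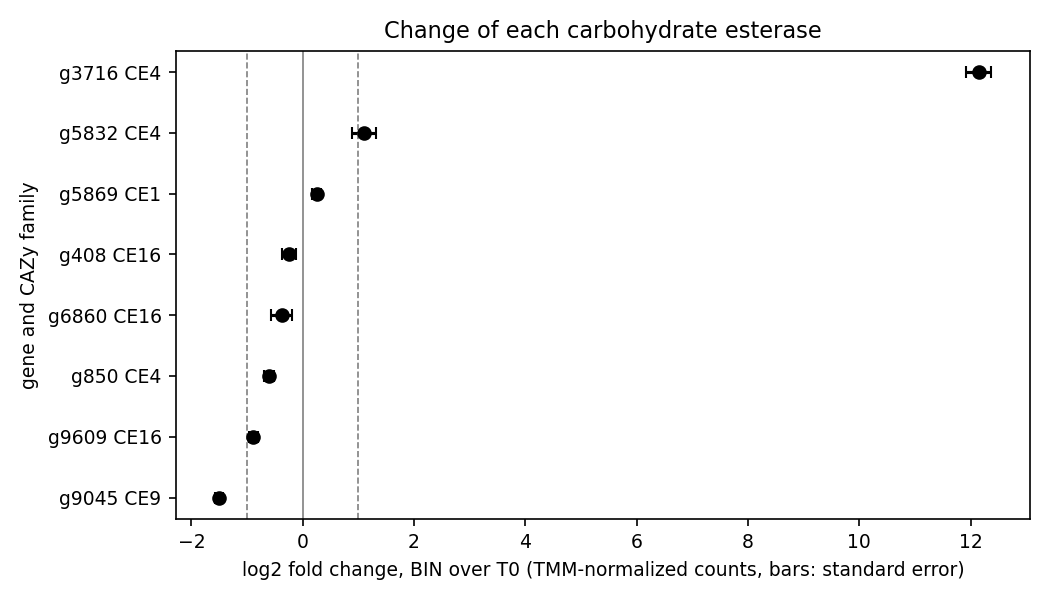
Log2 fold change of each carbohydrate esterase, BIN over T0, from TMM-normalized counts, with the standard error as a bar and dashed lines at the thresholds of -1 and 1. g3716 stands at 12.14, while the other 7 genes lie between -1.50 and 1.10.

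Per length, the order of the family in BIN was g3716, g850, g5869, g9045, g9609, g408, g5832 and g6860. Mean levels were 6415 ± 511 TPM for g3716, 119 ± 5.81 for g850, 86.1 ± 2.45 for g5869, 48.8 ± 2.09 for g9045 and 25.5 ± 1.04 for g9609 (SD, n = 3). They were 22.9 ± 1.67 TPM for g408, 19.0 ± 0.176 for g5832 and 5.68 ± 0.674 for g6860. No neighbours in this order overlapped between libraries, although g9609 and g408 came close, at 24.5 TPM and above against 24.4 TPM and below. In T0 the order was g850, g9045, g5869, g9609, g408, g5832, g6860 and g3716. g850 was at 134 ± 18.4 TPM, g9045 at 102 ± 5.28, g5869 at 53.5 ± 1.41 and g9609 at 34.9 ± 2.53 (SD, n = 3). The last 4 were g408 at 20.1 ± 2.30 TPM, g5832 at 6.67 ± 2.38, g6860 at 5.45 ± 1.80 and g3716 at 1.05 ± 0.0456 (SD, n = 3). Of these neighbours, g5832 and g6860 overlapped. Apart from g3716, g5869 and g9045 exchanged places between the groups. Among the 7 genes without g3716, the share of g5869 in their summed TPM was 26.3% ± 0.952 in BIN and 15.0% ± 0.915 in T0, and that of g9045 was 14.9% ± 0.695 in BIN and 28.7% ± 0.977 in T0 (SD, n = 3).

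The genes that make and break down chitin, the substrate of chitin deacetylases, were divided. Of the 8 GT2 genes annotated as chitin synthases, 3 were higher and none was lower, where 11.3% of all genes were higher and 14.5% lower, and their median log2 fold change was 0.40. The 3 were g9419, at 1.48 (SE 0.11, edgeR adjusted p = 3.18e-06), g7017, at 1.29 (SE 0.09), and g6521, at 1.27 (SE 0.12). The synthases have long coding sequences, with a median of 3402 nt where that of all genes is 1107 nt, and with the trend on coding length removed none was higher, g11653 was lower and the median was -0.05. On log2(TPM + 1) values 4 were higher, on a scale where 2136 of all 10015 genes were higher and 730 lower. g9419 was measured at 996, 952 and 896 CPM in BIN and 320, 378 and 323 CPM in T0.

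All 12 GH18 and GH20 genes, the families of chitinases and of hexosaminidases that split off N-acetylhexosamine, were in the table, and 3 were higher and 4 lower, 58.3% of the list where 25.9% of all genes were called in either direction. The median log2 fold change was 0.24. The GH18 gene g3493 had the largest rise, at 265, 188 and 286 CPM in BIN and 17.9, 21.2 and 19.8 CPM in T0, a log2 fold change of 3.64 (SE 0.17, edgeR adjusted p = 3.35e-07). The largest fall was that of the GH18 gene g10852, at -1.63 (SE 0.20, edgeR adjusted p = 8.53e-05). The other GH18 genes called were g3348, at 2.46, g9491, at 1.28, g5150, at -1.49, and g834, at -1.61, and the GH20 gene was g7008, at -1.25. On log2(TPM + 1) values 5 of the list were higher and 2 lower, where 2136 of all 10015 genes were higher and 730 lower. The 12 hydrolases and 8 synthases together had a summed TPM of 4038, 4059 and 4396 in BIN and 2937, 3244 and 3162 in T0, so that g3716 alone stood at 1.73, 1.54 and 1.37 times the sum of the 20 genes in BIN. The most abundant of the 20 in BIN was the GH18 gene g10854, at 1918, 1956 and 2211 TPM.

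**Figure D4:**
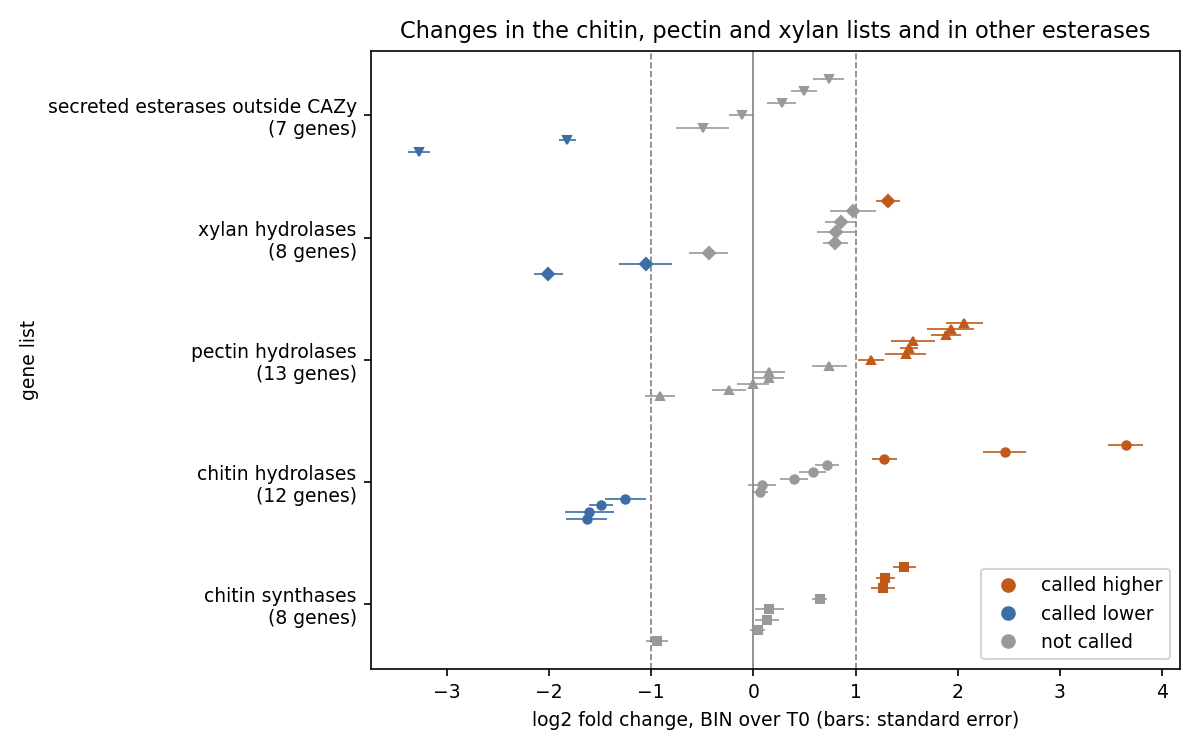
Log2 fold changes, BIN over T0, with standard errors for the genes of 5 lists, from the top the secreted esterases outside CAZy and the xylan, pectin and chitin hydrolases down to the chitin synthases, coloured by call. The pectin list has 7 genes called higher and none lower, and the chitin hydrolases are split between 3 higher and 4 lower.

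For the plant polymers on which esterases act beside hydrolases, the counts in the pectin and xylan lists were as follows. The pectin methylesterase gene of the annotation was not in the table. Of the 13 genes of GH28, GH78, GH88 and GH105, families that act on pectin backbones and their side groups, 7 were higher and none lower, beside 11.3% and 14.5% of all genes, and the list had a median of 1.15 on the log2 scale. The largest rise was that of the GH78 gene g11126, at 2.07 (SE 0.19, edgeR adjusted p = 1.28e-05). Of the 9 genes of GH10, GH43, GH51 and GH115, which act on xylan and its arabinose and glucuronic acid branches, 8 were in the table, with 1 higher and 2 lower, beside the same 11.3% and 14.5% of all genes. The GH115 gene g6326 was higher, at 1.32 (SE 0.12, edgeR adjusted p = 9.57e-06), and the GH51 gene g7154 had the largest fall, at -2.01 (SE 0.14, edgeR adjusted p = 3.29e-06). The xylan list leaves out other families in which the study names xylan enzymes, among them a xylanase that it reports as downregulated. The difference between the pectin and xylan lists was not tested.

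Esterases outside the CAZy families, which the study listed among secreted proteins as carboxyl esterases, a lipase and a calcineurin-like phosphoesterase, were also examined. All 7 were in the table, none was called higher and 2 were lower, which is 28.6% called beside 25.9% of all genes, and the median log2 fold change was -0.11. The phosphoesterase g2621 was measured at 37.2, 41.4 and 36.2 CPM in BIN and 351, 411 and 348 CPM in T0, a log2 fold change of -3.27 (SE 0.11, edgeR adjusted p = 3.2e-08). The carboxyl esterase g293 was at 49.2, 52.3 and 47.5 CPM in BIN and 167, 168 and 190 CPM in T0, a log2 fold change of -1.82 (SE 0.08, edgeR adjusted p = 1.57e-07). The other 5 lay between -0.50 and 0.74, and g4136 was the highest of them.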

How the data were processed

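RNA was sequenced from 3 BIN and 3 T0 cultures on an Illumina HiSeq platform. Reads were trimmed by the authors (Trimmomatic 0.32 in the submitters' processing notes), cleared of rRNA (SortMeRNA) and aligned with TopHat2 against the assembly of this strain. Raw counts per predicted gene were deposited. The program that counted reads, and its use of strand, are not given in the sources used here, so values of near-identical or overlapping genes are uncertain. The authors also deposited TPM, that is, the same counts per gene length, brought to a common total per library. The lengths were recovered from the ratio of counts to TPM. They came out whole (tolerance 1e-06) for all 10015 genes, and 99.3% were multiples of 3, so they are called coding lengths.

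Counts were compared with edgeR 4.0.16 under R 4.3.3 (filterByExpr, which removed no gene, TMM, robust glmQLFit and glmQLFTest, no replicate block). A standard error is the log2 fold change divided by the square root of F. The cultures are called biological replicates by the study. The p-values weigh the difference between BIN and T0 against the spread between libraries, which is estimated with information from all genes. With 3 against 3 libraries an exact permutation test cannot go below 0.1, so p-values come from the model across all genes. The fitting code was tested on simulated counts with planted changes. Alternatives were DESeq2 1.42.0, RLE and upper-quartile factors, library size alone, g3716 left out, no filter, only genes that average 1 TPM or more in either group, glmTreat, a replicate block, a lowess trend on log2 coding length (span 0.3) removed, limma 3.58.1 on log2(TPM + 1) and log2(TPM + 0.1), and each library left out. Exact intervals were computed with scipy 1.17.1.

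The esterases and the other lists were chosen with earlier results of these data known. Named were all esterases of the table, the genes numbered within 5 of g3716 and within 2 of the others, the 3 genes with profiles nearest to g3716, and in each other list the largest rise and fall among called genes and any called GH18 or GT2 gene. g10854, g11653, g4136 and the second called esterase outside CAZy, with the called GH20 gene, were added after their values were seen. No genome or protein sequence of this strain was used here.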

Additional observations from a re-analysis of the deposited data

How the results depend on the processing

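g3716 was called higher in all 17 alternative settings that could hold it, at log2 fold changes of 11.61 to 12.45, and in 12.07 to 12.18 with each library left out. Leaving g3716 out of the table changed no call among the other 7. The number of esterases called higher was 1 with glmTreat, 1 to 2 with each library left out (1 without T0 replicate 3), and 2 in the other settings, and the number called lower was 2 with the length trend removed and 1 otherwise, also with each library left out. The log2 fold change of g408 reversed to 0.0572 with the length trend removed, to 0.182 on log2(TPM + 1) and to 0.190 on log2(TPM + 0.1) values, and that of g6860 to 0.0838 and 0.103 on those TPM scales. The mean share of g3716 in the family in BIN, 95.1% in TPM, was 94.4% in TMM-normalized CPM and 94.9% to 95.3% with each BIN library left out.

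Deviations from the group means correlated at 0.034, 0.0087 and -0.10 between same-numbered libraries, and at -0.066 to 0.058 between the others. With 3 libraries in each group, this cannot decide whether same-numbered cultures were paired. With the replicate block g3716 was at 12.13, the esterases called were 2 higher and 1 lower as before, and over all genes 1146 were higher and 1441 lower, against 1134 and 1457 without it. In the lists, the chitin hydrolases had 5 higher and 2 lower on log2(TPM + 1) values. The chitin synthases had 0 higher and 1 lower with the length trend removed. The pectin list had 0 to 1 lower with each library left out (1 without BIN replicate 3). The xylan list had 2 higher with library size alone, with the length trend removed and with the block, and 4 on log2(TPM + 1) values. It had 1 lower with library size alone and on log2(TPM + 1) values. With each library left out the xylan list had 1 to 2 higher (2 without BIN replicate 1, BIN replicate 2 or T0 replicate 2) and 1 to 2 lower (1 without BIN replicate 3 or T0 replicate 1). The cause of these changes was not tested. The lowest level, g3716 in T0, rests on 74 reads.

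Scaling moved the split of calls over all genes. Of the called genes 43.8% were higher with TMM, 54.8% with library size alone (median log2 fold change of all genes 0.13), 74.5% with log2(TPM + 1) (median 0.40) and 75.8% with log2(TPM + 0.1) (median 0.43). With glmTreat, 737 genes were higher and 916 lower.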
